A study of Mus musculus with 99 samples.

Results

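Imprinted genes are expressed mainly from the copy inherited from 1 parent. The 8 examined here are Peg3, Ndn, Snrpn, Meg3, Dlk1, Rian, Grb10 and Plagl1. They were found by gene symbol among the 55335 Ensembl identifiers of the count files, and all 8 had an identifier. In mouse, Peg3, Ndn, Snrpn, Dlk1 and Plagl1 are known as paternally expressed genes and Meg3 and Rian as maternally expressed ones. Grb10 is expressed from the maternal copy in most tissues and from the paternal copy in neurons. The alleles are marked during germ cell development by DNA methylation at control regions, and many of these genes act on growth, metabolism and brain development. The counts are per gene without allele information, so they give the summed level of both alleles and cannot tell the parental copies apart.

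RNA was sequenced from tissue punches of wildtype juvenile mice born to C57BL/6 dams. Dams in the fentanyl groups drank 10 µg/ml of this synthetic opioid from embryonic day 0 until weaning, and the control groups are labelled water. The 5 regions were VTA, the ventral tegmental area of the midbrain with its dopamine neurons, VBT, the ventrobasal thalamus that relays touch, 2 cortical regions, S1 (primary somatosensory) and PrL (prelimbic), and NAc, the nucleus accumbens of the ventral striatum. Each of the 20 groups of region, sex and treatment had 5 libraries, except S1 of water males with 4. Libraries were made from 10 ng of RNA. The exact age of the juveniles, the litters and whether punches were pooled are not given in the sources used here. P-values therefore measure the spread between these libraries, which may share litters.

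Of 99 libraries, 98 were used. VTA male water 3 had counts for 6333 genes and was left out. The 98 others had 24079 to 27347 genes with a count and 23032078 to 52069639 counts, with a median of 36024982. Summed over its 6 marker genes, the VTA list stood at 334.8 to 1733 CPM (counts scaled to the total of the library) in the 19 VTA libraries and at no more than 69.3 CPM elsewhere. The thalamus list reached 780.6 to 2281 CPM in VBT, the cortex list 1320 to 2279 CPM in S1 and PrL, and the striatum list 1096 to 3798 CPM in NAc. Elsewhere the thalamus list rose to 712.6 CPM (in VTA) and the striatum list to 713.7 CPM (in VBT, median 115.4). A choroid plexus list summed to as much as 4569 CPM in VBT (median 13.8) and to no more than 1045 CPM in the other regions. The cortex list ranged from 56.0 to 1442 CPM among the NAc libraries. It summed to 171.1 to 482.4 CPM in VBT, where its mean score was 1.95 against 6.69 in S1 (log2 of CPM plus 1), so the sum alone does not measure cortical tissue. In bulk punches, fewer cells of a type and less RNA per cell cannot be told apart.

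The 8 genes lie at 5 places of the genome (GENCODE M21, GRCm38). Peg3 spans bases 6703892 to 6730431 of chromosome 7 on the minus strand. Further along the same chromosome, Snrpn (59982495 to 60140219, minus strand) and the single-exon gene Ndn (62346569 to 62350262, plus strand) belong to the region whose human counterpart is lost in Prader-Willi syndrome. Dlk1 (109452823 to 109463336), Meg3 (109541001 to 109571726) and Rian (109603940 to 109661716) follow each other on the plus strand of chromosome 12. Grb10 lies on chromosome 11 (11930508 to 12038683, minus strand) and Plagl1 on chromosome 10 (13060504 to 13131694, plus strand).

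RefSeq promoters of 300 bases (250 before and 50 after a start, GRCm38.p6) were read for all 8 genes, 13 in all, to show what the genes share in sequence. They differ widely in CpG, the dinucleotide that carries methylation. The upstream Grb10 promoter held 45 CpG, more than 98.1% of the 32851 promoters of the table, and Plagl1 held 26. Peg3 and the first Meg3 promoter held 13 each, Ndn 11 and Dlk1 9. The 4 Snrpn promoters held 2 to 7, against a median of 7 over all promoters, and Rian held 0. The 150 bases before the start of the CpG-rich Grb10 promoter (chr11:12037421-12037570, minus strand) and of Rian (chr12:109603795-109603944, plus strand) show these extremes, with CpG in capitals.
Grb10: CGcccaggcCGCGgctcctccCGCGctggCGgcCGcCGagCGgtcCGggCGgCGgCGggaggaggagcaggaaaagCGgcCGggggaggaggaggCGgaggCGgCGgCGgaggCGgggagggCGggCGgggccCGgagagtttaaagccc
Rian: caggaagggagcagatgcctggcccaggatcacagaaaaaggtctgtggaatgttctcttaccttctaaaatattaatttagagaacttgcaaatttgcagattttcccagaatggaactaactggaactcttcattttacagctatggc

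Ndn and all 4 Snrpn promoters hold the letters GCATGCG, which occur on either strand in 3.58% of all promoters and in none of the other 8 read here. The motif was chosen after the sequences were seen. It lies in the core of the sequence known to be bound by the transcription factor NRF1. In each of the 5 promoters it occurs on both strands at once, with the 2 matches overlapping in the capitals below. The stretches are 30 bases long and show that the surrounding letters are alike in the 3 upstream Snrpn promoters and differ in Ndn and in the last Snrpn promoter, where the match lies after the start.
Ndn (chr7:62348243-62348272, plus): gcttcccaacaCGCATGCGcaatatcgcat
Snrpn (chr7:60450222-60450251, minus): gcaaacatccaCGCATGCGtgattggaagg
Snrpn (chr7:60140285-60140314, minus): gcaaacatccaCGCATGCGtgatgggaggg
Snrpn (chr7:60048031-60048060, minus): gcaaacatgcaCGCATGCGtcgttgaaggt
Snrpn (chr7:60005150-60005179, minus): cagccattgcctgggaCGCATGCGtaggga

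Peg3 and the first Meg3 promoter hold the palindrome TGACGTCA, the cAMP response element, which 1.79% of all promoters hold. It too was chosen after the sequences were seen, and a match is a description of letters, not of binding.
Peg3 (chr7:6730579-6730608, minus): actgactccgtTGACGTCAactccgtgcct
Meg3 (chr12:109540928-109540957, plus): gcagaatgcgcTGACGTCAaagaccacccc

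Levels of the 8 genes differed by more than 3 orders of magnitude, and Dlk1 was listed at 0 in all 99 libraries. Peg3 took 64.7% of the counts of the 8 genes in the kept libraries, with 13009 to 61314 counts per library. Snrpn had 3453 to 9941, Ndn 1320 to 14064, Grb10 986 to 8387 and Plagl1 417 to 1813. Meg3 had 34 to 248 counts and Rian 1 to 135, so these 2 long noncoding RNAs were measured with far fewer reads. Per kilobase of exon, the order of mean levels in water was Peg3, Ndn, Snrpn, Grb10, Plagl1, Meg3 and Rian in VTA (104.4 ± 11.2, 81.6 ± 8.13, 72.5 ± 6.99, 21.7 ± 2.11, 3.23 ± 0.736, 0.275 ± 0.0574 and 0.0167 ± 0.0107 CPM per kilobase; SD, n = 9). In S1, Snrpn (72.1 ± 5.33) stood before Peg3 (39.4 ± 4.08) and Ndn (12.9 ± 1.51; SD, n = 9).

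The zero of Dlk1 and the low levels of Meg3 and Rian have a limit. Among the 21899 protein-coding genes of the annotation with an identifier in the files, 2338 were at 0 in every library, and these include Men1, Ehd1 and Raver1, which most cells use. Rtl1, between Meg3 and Rian, and Snurf, which shares the Snrpn transcript and 216 exon bases with Snrpn, were also listed at 0 throughout. Mirg, the last noncoding gene of the chromosome 12 stretch, stood at 42.3 ± 4.55 CPM in VTA (SD, n = 19). Whether reads of Dlk1, Meg3 and Rian were lost in counting was not tested. The library kit does not mark strand, and 6.79% of the Meg3 exon bases overlap a gene on the other strand. Of the Dlk1 exon bases, 0.0% overlap another gene on either strand. Of the Snrpn exon bases, 27.3% are shared with other genes of the same strand (Gm38393 and Snurf), so its counts may miss reads of that part.

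The regions were first compared in the water libraries alone. A gene is called where its adjusted p is under 0.05 in edgeR's quasi-likelihood test with Benjamini-Hochberg adjustment over the 20216 genes tested, and 7 of the 8 genes were tested, all but Dlk1. VTA stood apart for 4 genes: Peg3, Ndn, Grb10 and Meg3 were higher there than in each of the other 4 regions. The number of the 7 genes called was 7 for VTA against VBT (54.4% of all genes called), 5 against S1 (69.2%), 6 against PrL (68.2%) and 4 against NAc (66.2%). It was 5 for VBT against S1 (69.8%), 4 against PrL (70.1%) and 5 against NAc (69.8%), 4 for S1 against PrL (39.5%), 3 for S1 against NAc (55.1%) and 3 for PrL against NAc (52.1%). With 39.5% to 70.1% of all genes called, these counts are read against a high background, and the sizes below carry the description.

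**Figure D1:**
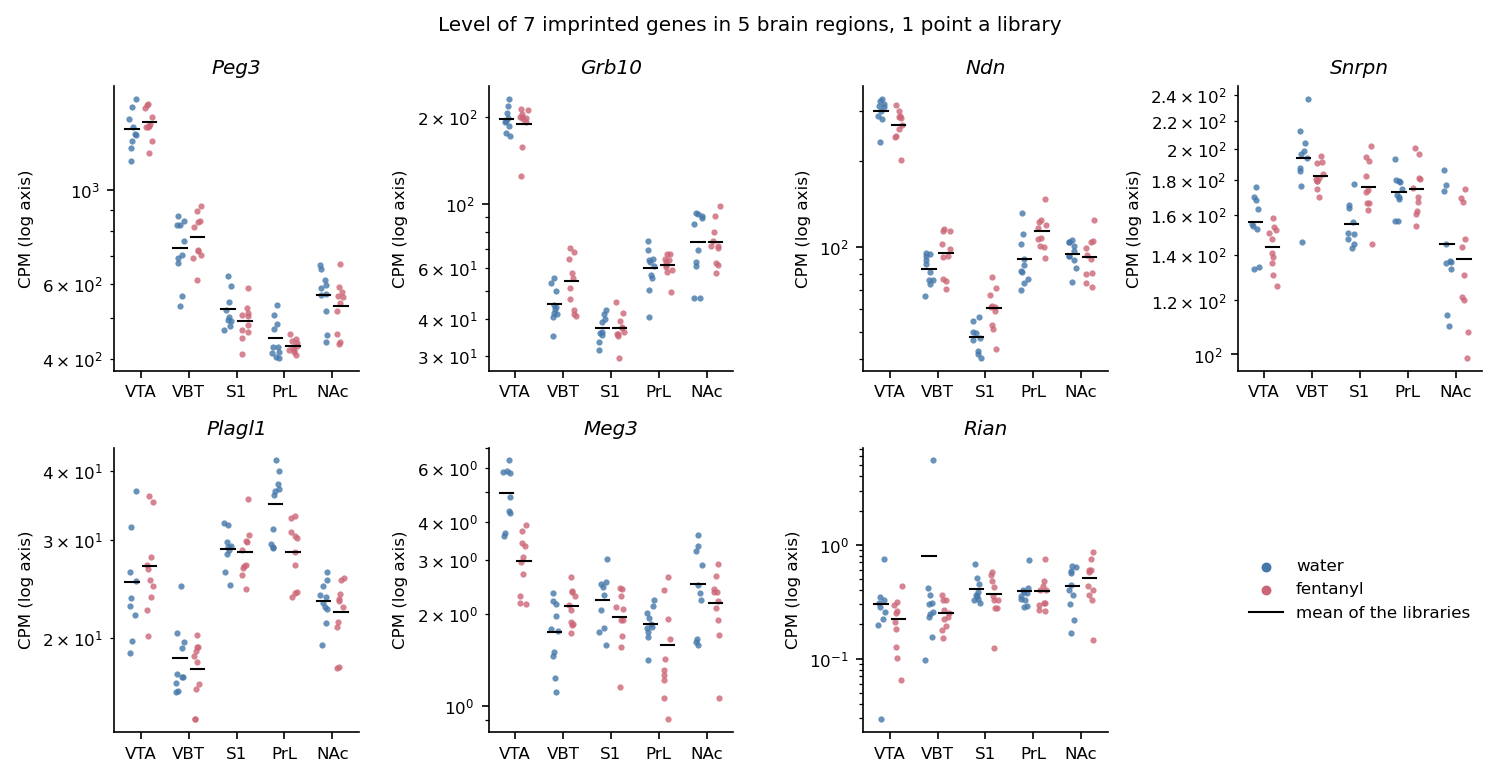
Level of the 7 genes with counts in each of the 98 libraries, in CPM on a log axis, by region, for water (blue) and fentanyl (red), with the mean of each as a black line. Peg3, Grb10 and Ndn are highest in all VTA libraries, and a single VBT water library at 5.53 CPM lifts the VBT mean of Rian.

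Peg3 encodes a zinc finger protein known for roles in maternal behaviour and growth. Its level in water was 1391 ± 149 CPM in VTA (SD, n = 9), 729.2 ± 118 in VBT (n = 10), 567.0 ± 75.4 in NAc (n = 10), 525.0 ± 54.4 in S1 (n = 9) and 449.2 ± 47.6 in PrL (n = 10). Every VTA library (lowest 1171 CPM) lay above every library of the other regions (highest 866.9 CPM, in VBT). The log2 fold change of VTA ran from 0.79 (SE 0.09) against VBT to 1.54 (SE 0.09) against PrL. S1 was above PrL by 0.22 (SE 0.09, adjusted p = 0.0369), a call lost in 9 of 48 fits without 1 library. NAc and S1 were neighbours in this order that did not differ beyond their spread (log2 0.03, SE 0.09, adjusted p = 0.804 in edgeR).

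Plagl1, a zinc finger protein that can halt the cell cycle, had another order. Its level was 34.9 ± 4.70 CPM in PrL (SD, n = 10), 29.0 ± 2.34 in S1 (n = 9), 25.2 ± 5.76 in VTA (n = 9), 23.3 ± 2.01 in NAc (n = 10) and 18.4 ± 2.72 in VBT (n = 10). PrL exceeded VBT by 0.88 (SE 0.08) on the log2 scale with no overlap of libraries. VTA and NAc did not differ beyond their spread in water (log2 0.10, SE 0.09, adjusted p = 0.307 in edgeR). In the fentanyl libraries described below, this pair was called (log2 0.22, SE 0.09, adjusted p = 0.0177 in edgeR).

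Ndn encodes necdin, a MAGE family protein of postmitotic neurons, and showed the widest range of the 7. It stood at 301.5 ± 30.03 CPM in VTA (SD, n = 9), 94.3 ± 9.79 in NAc (n = 10), 90.5 ± 18.96 in PrL (n = 10), 83.2 ± 9.71 in VBT (n = 10) and 47.7 ± 5.57 in S1 (n = 9). VTA was 5.95-fold above S1 (log2 2.57, SE 0.10), and its lowest library (234.1 CPM) lay above the highest of any other region (131.4 CPM, in PrL). S1 did not overlap with any other region (highest S1 library 56.5 CPM, lowest elsewhere 66.6 CPM). In water, NAc, PrL and VBT did not differ from each other beyond their spread (adjusted p = 0.432 to 0.798 in edgeR). In the fentanyl libraries described below, 2 of these pairs were called. VBT was at -0.27 against PrL (SE 0.09, adjusted p = 0.0065 in edgeR) and PrL at 0.39 against NAc (SE 0.09, adjusted p = 0.00015).

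Snrpn, which encodes an Sm protein of the spliceosome, varied least between regions of the 5 genes with over 400 counts in every library. Its order was VBT at 194.0 ± 23.6 CPM (SD, n = 10), PrL at 173.2 ± 11.05 (n = 10), VTA at 156.5 ± 15.1 (n = 9), S1 at 155.6 ± 11.5 (n = 9) and NAc at 145.1 ± 25.9 (n = 10). VBT was above each of the others, by 0.21 (PrL) to 0.55 (NAc) on the log2 scale, with overlapping libraries. The excess over S1 and PrL was not called in the fentanyl libraries described below. In water, VTA, S1 and NAc did not differ beyond their spread (adjusted p = 0.0674 to 0.433 in edgeR). Snrpn and Ndn lie in the same imprinted region, and of the pair Ndn was the one above every other region in VTA.

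Grb10 encodes an adaptor protein that dampens insulin and IGF1 receptor signalling. Its level was 196.9 ± 19.2 CPM in VTA (SD, n = 9), 73.9 ± 18.5 in NAc (n = 10), 60.1 ± 9.62 in PrL (n = 10), 45.1 ± 6.25 in VBT (n = 10) and 37.3 ± 3.95 in S1 (n = 9). All VTA libraries (lowest 171.3 CPM) were above all others (highest 93.0 CPM, in NAc), and the log2 fold change reached 2.31 (SE 0.11) against S1. NAc and PrL did not differ beyond their spread (log2 0.20, SE 0.10, adjusted p = 0.0885 in edgeR).

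Meg3, the maternally expressed noncoding RNA of the chromosome 12 cluster, averaged 4.97 ± 1.04 CPM in VTA (SD, n = 9). It averaged 2.50 ± 0.754 in NAc (n = 10), 2.23 ± 0.468 in S1 (n = 9), 1.86 ± 0.230 in PrL (n = 10) and 1.75 ± 0.422 in VBT (n = 10). The VTA excess was 0.995 (SE 0.15) to 1.35 (SE 0.15) on the log2 scale, and the VTA libraries overlapped those of NAc alone. Outside VTA, 1 of the 6 region pairs was called, with VBT at -0.36 against NAc (SE 0.15, adjusted p = 0.0287 in edgeR), and 4 of 48 fits without 1 library lost that call. In the fentanyl libraries this difference was 0.06 (adjusted p = 0.740). PrL against NAc missed the threshold (log2 -0.33, SE 0.15, adjusted p = 0.0584) and was called in 25 of the 48 fits.

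Rian, the host of a cluster of C/D small nucleolar RNAs, averaged 0.304 to 0.790 CPM by region. VTA was at -1.29 against VBT on the log2 scale (SE 0.50, adjusted p = 0.0254 in edgeR), and this rested on 1 library. VBT male water 3 had 135 Rian counts (5.53 CPM), while the other 4 of its group had 0.154 to 0.361 CPM. Without it, the log2 difference of VTA and VBT was 0.02 (adjusted p = 0.971). The same library set the sign for VBT against the other regions, none of which was called: VBT was at 0.85 against PrL and 0.81 against NAc (adjusted p = 0.0997 and 0.117 in edgeR), and at -0.51 and -0.58 without it.

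The 50 fentanyl libraries gave a second set that shares no library with the water set. Of the 70 tests (7 genes, 10 region pairs), 46 were called in water and 49 in fentanyl, beside 61.4% and 65.0% of all genes over the same pairs. The 38 called in both all had the same sign. Of the 19 called in 1 set alone, 6 were of Rian, 4 of Snrpn and 3 of Meg3, and 4 had opposite signs in the sets. These were VBT against PrL (water -0.03, fentanyl 0.40) and NAc (-0.36 and 0.06) for Meg3, and VBT against PrL (0.85 and -0.65) and NAc (0.81 and -0.91) for Rian. Peg3, Ndn and Grb10 were above each other region in VTA there too. Meg3 was not: in fentanyl its VTA excess over VBT was 0.34 on the log2 scale (SE 0.16, adjusted p = 0.0537 in edgeR), against 1.35 in water. Snrpn in VBT was not called above S1 (0.09, SE 0.07, adjusted p = 0.251 in edgeR) or PrL (0.05, SE 0.07, adjusted p = 0.498) in fentanyl. It was called lower in VTA than in S1 (-0.40, SE 0.07, adjusted p = 1.4e-06) and higher in S1 than in NAc (0.41, SE 0.07, adjusted p = 1.8e-06), pairs that were not called in water.

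**Figure D2:**
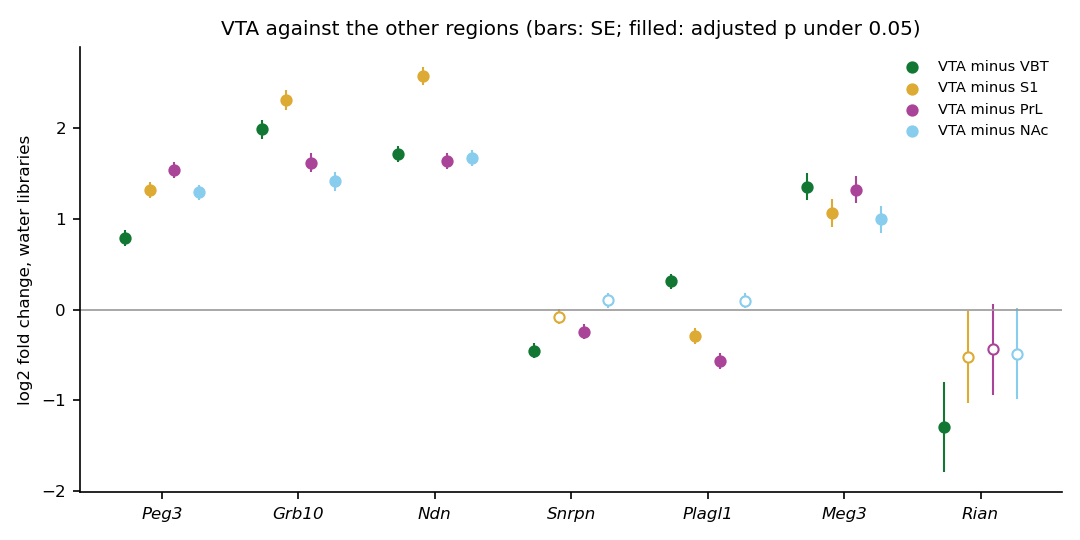
Log2 fold change of VTA against each other region in the water libraries for the 7 genes, with standard errors, filled where the adjusted p is under 0.05. Peg3, Grb10, Ndn and Meg3 lie above 0 against all 4 regions, from 0.79 (Peg3, VBT) to 2.57 (Ndn, S1).

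Over the 10 means of region and sex in water, the pattern of Ndn was most like that of Grb10 among the 7 (r = 0.97), and Peg3 correlated with both (0.85 and 0.81). These points share the VTA excess and the libraries, and no test is attached. Among 13006 genes with at least 5 CPM in some region, the closest to Peg3 were Lpin1 (r = 0.997) and Gpr165 (0.995), and the closest to Ndn were Lhfpl5 (0.996) and Hspa5 (0.994). For Grb10 they were AW551984 (0.996), at 137.9 CPM in VTA against 1.88 to 17.9 CPM elsewhere, and Ift46 (0.994). Aldh2 (0.989) and Lgals3bp (0.985) came closest to Meg3, Pard6a (0.927) and Asna1 (0.922) to Snrpn, and Sema3c (0.981) and Cask (0.972) to Plagl1. Rian had no such close match, with Ctss at 0.794 and Acsl1 at 0.743.

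Other imprinted genes were read from a list of 62, of which 60 were matched and 54 tested. In water, 33 of the 54 had their highest mean in VTA, against 30.9% of all 20216 genes. Against S1, 38 were called higher and 9 lower in VTA, 87.0% of the list beside 69.2% of all genes, with a list median of 0.58 on the log2 scale, beside 0.05 over all genes. The share called was 79.6% against VBT (beside 54.4%), 81.5% against PrL (beside 68.2%) and 77.8% against NAc (beside 66.2%), with 36, 36 and 32 higher and 7, 8 and 10 lower in VTA. The list medians there were 0.47, 0.41 and 0.30, beside 0.01, 0.03 and 0.03 over all genes. The 4 of widest range were all highest in VTA. Ddc, the decarboxylase of dopamine and serotonin synthesis, had 361.6 ± 77.6 CPM there and 4.11 to 14.6 CPM elsewhere. Magel2, the neighbour of Ndn, had 21.5 ± 3.82 CPM there and 0.591 to 5.96 elsewhere. Zim1, next to Peg3, had 63.4 ± 7.50 CPM there and 3.87 to 10.0 elsewhere. Nnat, a small membrane protein gene, had 218.2 ± 60.0 CPM in VTA and 211.2 ± 54.6 in NAc (SD, n = 9 and 10), which did not differ (adjusted p = 0.838 in edgeR).

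Fentanyl was compared with water within each region, in females, in males, over both sexes (the average of the female and male log2 fold changes) and between them (the interaction, male minus female). Over 5 regions, edgeR called 2 of 35 tests in males, both in VTA, 2 of 35 averages, and 0 of 35 in females and 0 of 35 interactions. Of all genes, it called 4.62% of the tests in males, 5.07% of the averages, 0.033% in females and 0.0% of the interactions. At an unadjusted p under 0.05 there were 12, 10, 8 and 9. By region, in the order of females, males, average and interaction, these were 1, 3, 3 and 2 of 7 in VTA, where 12.7%, 34.7%, 35.4% and 11.4% of all genes were under that p. They were 2, 2, 3 and 2 in VBT (7.86%, 8.7%, 8.49% and 8.03%), 1, 2, 2 and 0 in S1 (13.9%, 7.15%, 15.8% and 4.14%), 3, 2, 2 and 1 in PrL (9.53%, 12%, 19.1% and 2.59%) and 1, 3, 0 and 4 in NAc (9.03%, 17.6%, 12% and 15.2%). DESeq2 called 3 in males, 5 averages, 1 in females and 0 interactions, beside 6.29%, 6.98%, 0.602% and 0.619% of all genes by DESeq2. In the same order limma-voom called 4, 2, 0 and 3, beside 8.39%, 6.33%, 0.221% and 1.86% of all genes. The edgeR counts of 2 of 35 lie near the shares of all genes, whose calls in males and averages lay mostly in VTA.

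**Figure D3:**
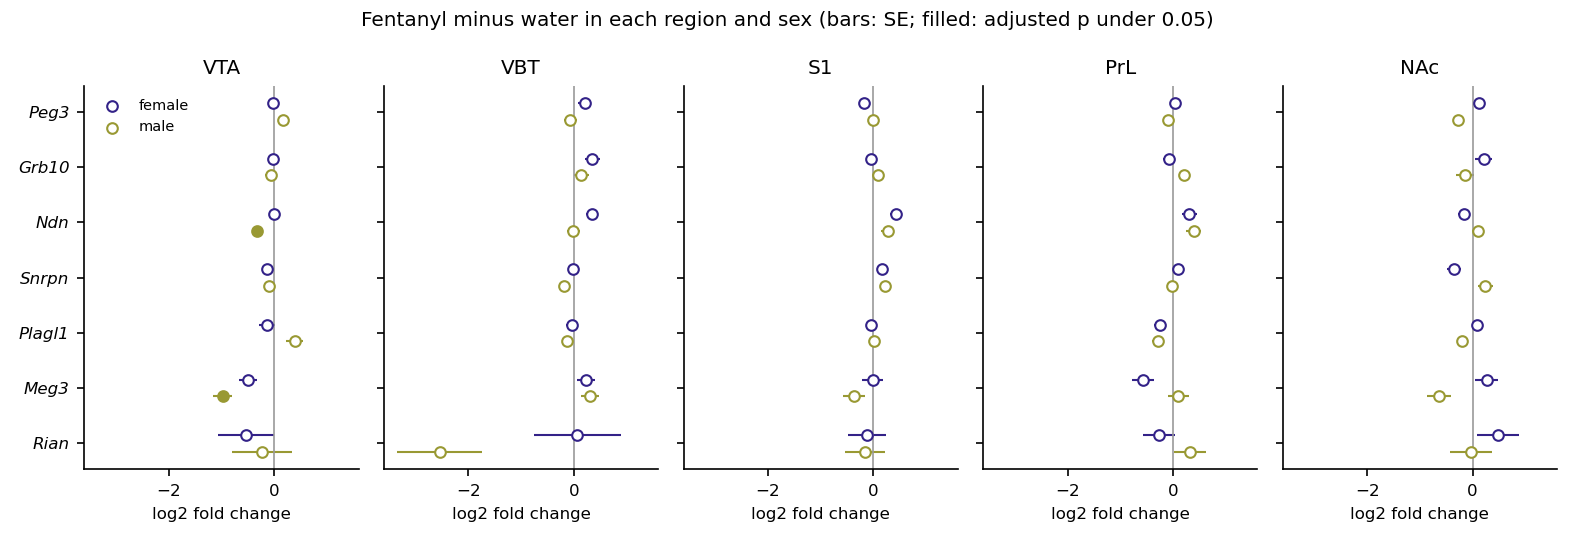
Log2 fold change of fentanyl against water with standard errors for the 7 genes in females and males of each region, filled where the adjusted p is under 0.05. Only Ndn and Meg3 in VTA males are filled, at -0.32 and -0.97, and the wide bar of Rian in VBT males holds 1 library with 135 counts.

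In VTA males, Meg3 and Ndn were lower with fentanyl. These 2 of 7 genes stand beside 22.0% of all 19822 genes called in that comparison, and 23.1% over both sexes, so the share is not particular to them. Meg3 stood at 4.82, 5.81, 5.86 and 6.37 CPM in the water males (195 to 248 counts) and at 2.15, 2.18, 2.71, 3.41 and 3.75 CPM in the fentanyl males (68 to 134 counts). All fentanyl libraries were below all water libraries, as for 23.5% of the 18695 genes with a mean of at least 10 counts. Meg3 fell by 0.97 on the log2 scale (SE 0.18, adjusted p = 0.0025 in edgeR).

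In VTA females, Meg3 was at 3.61 to 5.89 CPM with water (median 4.30) and at 2.28 to 3.90 CPM with fentanyl (median 3.08). The groups overlapped, and the log2 fold change of -0.50 (SE 0.17) did not pass (adjusted p = 0.287 in edgeR), in a comparison where 0.0% of genes were called. The difference between the sexes was -0.47 (SE 0.25) and did not pass (adjusted p = 0.471 in edgeR). Over both sexes Meg3 fell by 0.74 (SE 0.12, adjusted p = 0.0011 in edgeR). It stayed called in the 19 fits without 1 library, with values from -0.80 to -0.68. Among the alternatives run, it lost the call where VTA male water 3, in which Meg3 had 0 counts, was kept (-0.58, adjusted p = 0.9999).

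Ndn in VTA males was at 312.0, 319.5, 326.7 and 332.1 CPM with water and at 202.3, 243.8, 260.8, 269.3 and 287.1 CPM with fentanyl. The groups did not overlap, and Ndn fell by 0.32 (SE 0.08, adjusted p = 0.012 in edgeR). With VTA male water 3 kept, neither Meg3 (-0.66) nor Ndn (-0.07) was called in males (adjusted p = 0.9996 for both). In females it was at 284.6 ± 30.8 CPM with water and 286.8 ± 25.8 with fentanyl (SD, n = 5 each). The difference between the sexes was -0.32 (SE 0.12) and did not pass (adjusted p = 0.420 in edgeR).

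Plagl1 in VTA males lay the other way, at 18.8, 19.7, 25.4 and 26.3 CPM with water and at 20.2, 25.5, 26.7, 35.2 and 36.0 CPM with fentanyl. The groups overlapped, and the log2 fold change of 0.38 (SE 0.16) did not pass (adjusted p = 0.0953 in edgeR). It was called by DESeq2 (0.39, adjusted p = 0.0483), by limma-voom (0.50, adjusted p = 0.0086) and with the share of reads outside exons as a covariate (0.52, adjusted p = 0.0045), where 25.7%, 33.1% and 27.9% of all genes were called. That share was 12.4% ± 0.440 with water and 11.9% ± 0.590 with fentanyl (SD, n = 4 and 5).

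Measures of the VTA libraries are given beside the falls of Meg3 and Ndn, and not all of them moved with both. The rank correlation of expression with GC content, each library against its region's mean, was 0.553 to 0.679 in the 4 water males of VTA and -0.523 to -0.121 in the 5 fentanyl males. In VTA females it was -0.339 to 0.686 with water and -0.585 to 0.0413 with fentanyl. With offsets that remove a GC trend per library, 515 genes (2.6%) were called in VTA males in place of 4355, and Ndn (log2 -0.48, adjusted p = 0.0157) and Meg3 (-0.89, adjusted p = 0.014) stayed called in edgeR. The mean score of the 6 VTA markers (log2 of CPM plus 1) was 6.07 ± 0.354 in water males and 5.198 ± 0.862 in fentanyl males (SD, n = 4 and 5), and none of the 6 was at 0. With this score as a covariate, Ndn was at -0.22 and no longer called (adjusted p = 0.0772), and Meg3 was at -0.78 (adjusted p = 0.0155). Summed levels of the choroid plexus list were 11.3 to 1045 CPM in water males and 13.96 to 26.6 CPM in fentanyl males. Blood scores were 3.54 ± 0.728 with water and 4.24 ± 0.976 with fentanyl in males and 3.71 ± 0.759 and 4.70 ± 0.982 in females (SD), with sums of 74.0 to 247.9 and 82.6 to 489.6 CPM in males. Cortex scores were 1.41 ± 0.203 and 1.70 ± 0.392 in males and 1.48 ± 0.328 and 2.08 ± 0.458 in females, with sums of 9.47 to 16.5 and 12.7 to 73.7 CPM in males. The 3 serotonin neuron markers summed to 35.7 to 605.5 CPM in water males and 3.98 to 886.5 CPM in fentanyl males. The choroid plexus and serotonin sums overlapped between treatments. Blood and cortex scores were also higher with fentanyl in females, where Ndn had a log2 fold change of -0.003. No marker of these 4 lists was at 0 throughout a group, and the part of these lists in the results was not tested.

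Ndn was higher with fentanyl in S1. In S1 females it was at 40.4, 41.7, 47.4, 54.5 and 56.5 CPM with water and at 52.9, 61.3, 61.9, 71.2 and 78.1 CPM with fentanyl. In S1 males it was at 42.6, 46.9, 49.5 and 49.99 CPM with water and at 43.5, 51.0, 59.0, 61.0 and 67.2 CPM with fentanyl. The ranges overlapped in both sexes, with most fentanyl libraries above all water libraries. Over both sexes Ndn rose by 0.35 (SE 0.09, adjusted p = 0.048 in edgeR), the 1 call among the 7 genes, where 1.03% of 19748 genes were called. In S1 females alone, 0 of 7 were called by edgeR, where 0.142% of genes were, and 1 by DESeq2, where 2.06% were. The call over both sexes is not firm: it held in 5 of the 19 fits without 1 library, with adjusted p up to 0.110 in the others and values from 0.31 to 0.39. Scores of the cortex list were also higher with fentanyl in S1 (6.75 ± 0.105 against 6.62 ± 0.0504 in females, 6.75 ± 0.0905 against 6.63 ± 0.0710 in males), and with the score as a covariate Ndn was at 0.10 (adjusted p = 0.812). Other measures are given too. Summed astrocyte markers were 3667 to 5160 CPM with fentanyl and 4878 to 5782 CPM with water in females, and 3605 to 5160 and 4504 to 5832 CPM in males. Endothelium scores were 5.54 ± 0.163 against 5.64 ± 0.189 in females and 5.45 ± 0.191 against 5.68 ± 0.136 in males (SD), and no marker of either list was at 0 throughout a group. The part of these lists in the result was not tested. The GC rank correlation was -0.143 to 0.326 with fentanyl and -0.446 to 0.0182 with water in females, and -0.260 to 0.224 and -0.393 to 0.381 in males. With GC offsets Ndn was at 0.39 (adjusted p = 0.0502).

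**Figure D4:**
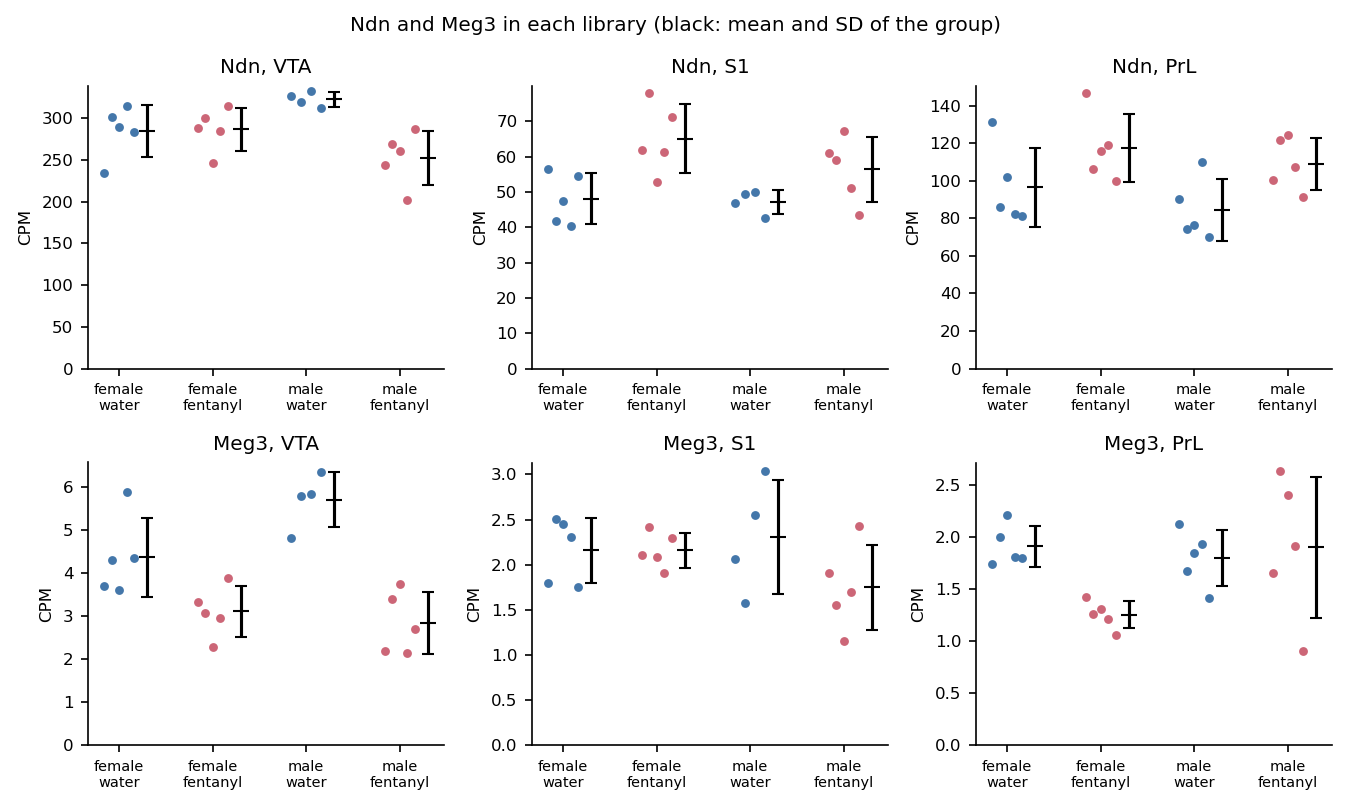
Ndn (top) and Meg3 (bottom) in each library of VTA, S1 and PrL by sex and treatment, in CPM from 0, with the mean and SD of each group in black. In VTA males all fentanyl libraries lie below all water libraries for both genes, while Ndn means in S1 and PrL are higher with fentanyl in both sexes.

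In PrL, 0 of the 7 genes were called over both sexes, where 0.697% of 19074 genes were, with 2 at an unadjusted p under 0.05 and 2 called by DESeq2, which called 4.08% of all genes. These are Ndn, at 0.35 (SE 0.10, adjusted p = 0.0909 in edgeR), and Plagl1, at -0.26 (SE 0.08, adjusted p = 0.102). Ndn averaged 96.7 ± 21.1 CPM with water and 117.5 ± 18.02 with fentanyl in females, and 84.4 ± 16.4 and 109.1 ± 14.01 in males (SD, n = 5 each). Plagl1 averaged 34.3 ± 3.89 CPM with water and 28.4 ± 4.19 with fentanyl in females, and 35.4 ± 5.82 and 28.7 ± 3.38 in males. In PrL females, Meg3 was at 1.74 to 2.22 CPM with water and 1.06 to 1.43 CPM with fentanyl, with no overlap, as for 2.18% of 18338 genes, and its log2 fold change of -0.57 (SE 0.21) did not pass (adjusted p = 0.401 in edgeR), where 0.021% of 19074 genes did. Reads outside exons made up less of the fentanyl libraries of PrL, at 10.97% ± 0.678 against 13.3% ± 0.849 in females and 11.8% ± 0.732 against 13.7% ± 0.722 in males (SD, n = 5 each). With this share as a covariate, Ndn in PrL was at 0.29 (adjusted p = 0.769), Plagl1 at -0.04 (adjusted p = 0.974) and Meg3 in females at -0.30 (adjusted p = 0.911), and 0 of 19074 genes were called over both sexes. With the cortex score as a covariate, Ndn was at 0.24 (adjusted p = 0.359) and Plagl1 at -0.19 (adjusted p = 0.383).

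Differences of the fentanyl effect between regions were tested in 1 fit over all 98 libraries, added after the data were seen. The Ndn effect in VTA was below that in S1 by 0.49 (SE 0.13, adjusted p = 0.0032) and below that in PrL by 0.52 (SE 0.12, adjusted p = 0.0038). The Meg3 effect in VTA was below that in VBT by 0.997 (SE 0.20, adjusted p = 0.00029) and below that in S1 by 0.54 (SE 0.20, adjusted p = 0.0463). The Snrpn effect was lower in VTA than in S1 by 0.29 (SE 0.10, adjusted p = 0.0376), and the Plagl1 effect higher in VTA than in PrL by 0.38 (SE 0.12, adjusted p = 0.0243). These are 6 of 70 tests, all in pairs with VTA. Against VBT the call was Meg3, where 14% of 22326 genes were called. Against S1 the calls were Ndn, Meg3 and Snrpn (19% of all genes), and against PrL Ndn and Plagl1 (11%). Against NAc none of the 7 was called (11.5%). For pairs without VTA, 0 of the 7 were called, and 0.878% (VBT, S1), 0.228% (VBT, PrL), 0.582% (VBT, NAc), 0.219% (S1, PrL), 0.0717% (S1, NAc) and 0.327% (PrL, NAc) of all genes.

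In VBT and NAc none of the 7 genes was called in any of the 4 contrasts by edgeR or DESeq2, while limma-voom called 1 in NAc males and 3 in the NAc interaction. Of all genes, limma-voom called 8.07% in NAc males and 6.72% in the NAc interaction. The edgeR background was 0.0% in VBT and, in NAc, 0.662% in males and 0.0% in the other contrasts. Rian in VBT males gave -2.54 (SE 0.81, adjusted p = 0.339 in edgeR), in a group that holds the water library with 135 counts. Meg3 in NAc males was at 2.91 ± 0.528 CPM with water and 1.83 ± 0.492 with fentanyl (SD, n = 5 each; log2 -0.64, SE 0.22, adjusted p = 0.133 in edgeR). In NAc females it was at 2.08 ± 0.756 and 2.51 ± 0.282 CPM, with an interaction of -0.90 (SE 0.31, adjusted p = 0.172). Snrpn in NAc was at 159.4 ± 29.5 CPM with water and 125.2 ± 26.6 with fentanyl in females and 130.8 ± 11.6 and 151.2 ± 21.9 in males, with an interaction of 0.60 (SE 0.20, adjusted p = 0.157 in edgeR). Peg3 in NAc males was at 600.4 ± 60.3 CPM with water and 485.6 ± 60.2 with fentanyl (log2 -0.28, SE 0.10, adjusted p = 0.147 in edgeR), and in females at 533.6 ± 79.7 and 585.0 ± 50.1 CPM, with an interaction of -0.40 (SE 0.14, adjusted p = 0.176). The limma-voom calls in NAc were Peg3 in males (adjusted p = 0.0355) and Peg3, Snrpn and Meg3 in the interaction (adjusted p = 0.0467, 0.0244 and 0.0307). Grb10 was not called in any region or contrast by edgeR.

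Measures of the NAc libraries are given beside these values, and the marker scores differed more between treatments in females than in males. In NAc females, neuron scores were 9.45 ± 0.172 with water and 9.16 ± 0.210 with fentanyl, cortex scores 5.401 ± 0.901 and 4.24 ± 1.42, and striatum scores 7.81 ± 0.558 and 8.49 ± 0.252 (SD, n = 5 each). In NAc males they were 9.18 ± 0.0381 and 9.22 ± 0.192, 4.62 ± 0.342 and 4.31 ± 1.30, and 8.19 ± 0.238 and 8.42 ± 0.495. With the striatum score as a covariate, Snrpn was at -0.09 in females (adjusted p = 0.954) in place of -0.36, at 0.32 in males (adjusted p = 0.0971) in place of 0.24 and at 0.41 in the interaction (adjusted p = 0.188). Meg3 in females was then at -0.04 (adjusted p = 0.988) in place of 0.26, and in males at -0.78 (adjusted p = 0.0354), a call, where 3.23% of all genes were called. Reads outside exons made up 15.4% ± 0.836 of the water males and 14.03% ± 0.881 of the fentanyl males, and 14.6% ± 2.23 and 15.02% ± 0.562 in females. With this share as a covariate, Snrpn was at 0.05 in males (adjusted p = 0.826) and 0.33 in the interaction (adjusted p = 0.362).

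Of the wider imprinted list, the called genes lay in VTA and PrL. In VTA males 4 rose and 2 fell of 54 (11.1%, beside 22.0% of all genes), and over both sexes 4 rose and 4 fell (14.8%, beside 23.1%), with list medians of 0.02 and 0.02 beside 0.00 over all genes. Begain, next to Dlk1 on chromosome 12, fell by 0.61 in VTA males (SE 0.13, adjusted p = 0.00509 in edgeR) and by 0.53 over both sexes (SE 0.09, adjusted p = 0.00135). Copg2, a coat protein gene near Mest, rose by 0.34 in males (SE 0.07, adjusted p = 0.00296). Mcts2, a retrogene within H13, rose by 0.38 in males (SE 0.10, adjusted p = 0.0107), and Gnas, the Gs alpha locus, fell by 0.17 over both sexes (SE 0.05, adjusted p = 0.0123). Mirg, the noncoding gene beyond Rian, fell by 0.17 over both sexes (SE 0.06, adjusted p = 0.0327), and was named after its value was seen. In PrL over both sexes 2 of 52 were called (3.85%, beside 0.697% of all genes), both lower. Kcnq1ot1, the antisense noncoding RNA of the Kcnq1 domain, fell by 0.36 (SE 0.05, adjusted p = 0.00515), and Snhg14, the host transcript downstream of Snrpn, fell by 0.27 (SE 0.06, adjusted p = 0.0412), in the libraries with fewer reads outside exons given above. With that share as a covariate neither was called, as 0 of 19074 genes were.

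Within a region, neighbouring genes of a cluster were compared across libraries as deviations of log2(CPM + 1) from the group mean, with 100000 permutations within groups and Benjamini-Hochberg adjustment over 10 relations. Ndn and Snrpn deviated together in NAc, with Pearson's r = 0.75 (n = 20, permutation p = 0.00032, adjusted 0.0032) and Spearman's rho = 0.83 (permutation p = 6.0e-05, adjusted 0.0006). Without the 2 libraries farthest from the Ndn median, r was 0.72. It was 0.77 with a GC trend removed and 0.66 with the scores of the 4 region marker lists removed, the latter chosen after seeing the data. With the GC trend removed, r was 0.66 in S1, 0.56 in VBT, 0.32 in PrL and 0.22 in VTA, and with the marker scores removed it was 0.55, 0.58, 0.12 and 0.44. Uncorrected, in S1 r was 0.57 (permutation p = 0.0197, adjusted 0.0658) and rho 0.49 (p = 0.0459, adjusted 0.153), and in VBT r was 0.54 (permutation p = 0.0106, adjusted 0.0528) and rho 0.49 (p = 0.0339, adjusted 0.153). In VTA r was -0.14 and in PrL 0.09 (permutation p = 0.634 and 0.718, both adjusted 0.746), with rho -0.08 and 0.05 (p = 0.753 and 0.855). Leaving out 2 libraries gave 0.61 in S1, 0.46 in VBT, 0.13 in VTA and 0.23 in PrL. Whether the NAc relation differs from those of the other regions was not tested. Meg3 and Rian gave r between -0.27 and 0.27 in the 5 regions (adjusted permutation p = 0.412 to 0.746), with 1 to 135 counts of Rian per library. With the marker scores removed, r was 0.56 in VTA, 0.54 in VBT, 0.10 in NAc, -0.46 in S1 and -0.53 in PrL, given with no test. Relations with Dlk1 could not be computed.

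**Figure D5:**
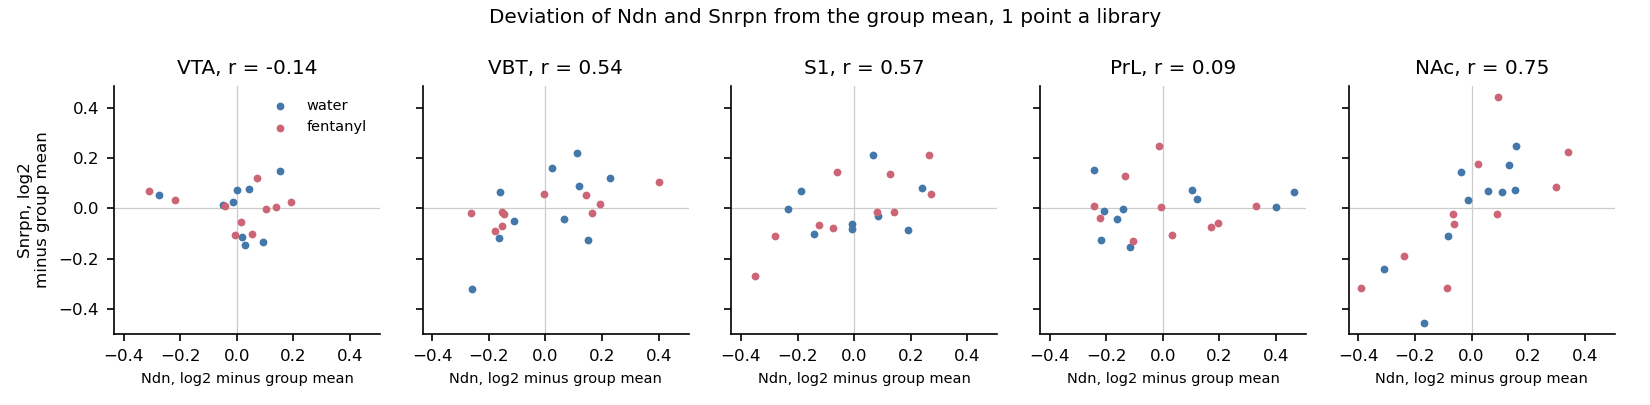
Deviation of Snrpn against that of Ndn from the mean of the group, in log2 units, 1 point a library, for each region. The points of NAc follow a line (r = 0.75), and those of VTA and PrL do not.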

How the data were processed

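The authors deposited 1 file of raw counts for each library, with no normalization, over Ensembl genes. The submitters' processing notes name HTSeq and GRCm38. The aligner, annotation release and strand setting are not given in the sources used here. Symbols, positions, exon lengths and overlaps came from GENCODE M21, which holds 55154 of the 55335 identifiers, and promoters from RefSeq (GRCm38.p6). The 5 summary lines of each file stayed out of the totals. They gave 9.99 to 18.0% of reads outside exons and 1.50 to 2.24% ambiguous.

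CPM was computed on gene totals. Each region was fitted in edgeR 4.0.16 (R 4.3.3) with TMM, filterByExpr and robust quasi-likelihood F-tests, and all water libraries in 1 fit for regions. Benjamini-Hochberg adjustment ran over all genes tested, and standard errors derived from F. Alternatives used DESeq2 1.42.0, limma 3.58.1, other filters, offsets, covariates, a replicate block and each library left out. Other steps ran in Python 3.11.15, numpy 2.4.6, scipy 1.17.1 and pandas 2.3.3, with figures in matplotlib 3.10.9. On simulated VTA counts (19822 genes), 68 of 100 genes changed 2-fold and 50 of 100 changed 1.5-fold were recovered, with 9 false calls. A 0 allows up to 3 counts, counting error only. No 2 libraries of a group agreed within sampling noise (lowest chi-square per gene 6.47).

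The 8 genes and all lists were chosen with earlier results of these data known. Named genes were the 8, called genes of the wider imprinted list (at most 3 of smallest p per contrast), its 4 of widest range, and the 2 most alike genes per member. Marker lists served as checks of the punches.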

Additional observations from a re-analysis of the deposited data

Results flagged for a closer look

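Single libraries far from the rest of their group were sought for the 7 genes with counts in the 20 groups, 140 sets in all, of which chance gives about 7. There were 11. Rian stood at 5.53 CPM in VBT male water 3 against 0.154 to 0.361 in the other 4, at 0.676 CPM in S1 female water 1 (others 0.310 to 0.385) and at 0.736 CPM in PrL female water 5 (others 0.289 to 0.415). Grb10 was low in VTA female fentanyl 3 (157.9 CPM against 199.2 to 213.5) and in VTA male fentanyl 4 (124.5 CPM against 192.4 to 198.9), high in VBT female water 3 (55.7 CPM against 41.8 to 44.1) and low in NAc male water 2 (61.3 CPM against 85.5 to 93.0). Snrpn was low in that NAc library too, at 110.2 CPM against 133.5 to 137.2. Peg3 was low in VBT male fentanyl 5 (614.8 CPM against 693.7 to 724.4) and high in S1 male water 3 (627.4 CPM against 479.4 to 493.8). Meg3 was high in VBT male fentanyl 4, at 2.36 CPM against 1.73 to 1.88.

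Fentanyl effects that differed between regions in the joint fit, as a log2 difference, were Meg3 in VTA minus VBT (-0.997) and VTA minus S1 (-0.54), Ndn in VTA minus S1 (-0.49) and VTA minus PrL (-0.52), Snrpn in VTA minus S1 (-0.29) and Plagl1 in VTA minus PrL (0.38).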

How the results depend on the processing

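Of the 7 genes tested in each region and contrast, the number called moved with the setting. Shares of all genes called in the same setting are in brackets. VTA males had 2 (22.0%), and 1 with the region marker score (9.04%) and 0 with VTA male water 3 kept (0.216%). The VTA average had 1 (23.1%). It was 2 with DESeq2 (26.4%), limma-voom (27.2%), genes of at least 50 counts on average (32.5%), the replicate block with GC offsets (2.18%) or the marker score (13.6%), 3 with GC offsets (3.38%), 4 with reads outside exons as a covariate (29.3%), and 0 with VTA male water 3 kept (0.309%). The S1 average had 1 (1.03%), and, where 0.0% to 1.16% of all genes were called, 0 with limma-voom, no filter, the replicate block (with or without GC offsets), GC or length offsets, reads outside exons, or the marker score. DESeq2 gave 1 in S1 females (2.06%) and 2 in the PrL average (4.08%) in place of 0. In NAc males limma-voom (Peg3; 8.07%) and the marker score (Meg3, -0.78, adjusted p = 0.0354; 3.23%) gave 1 each in place of 0, and limma-voom gave 3 in the NAc interaction (6.72%) in place of 0. Between regions in water, keeping VTA male water 3 gave 3 for VBT against NAc (43.9%) in place of 5, 2 for S1 against PrL (11.8%) in place of 4 and 1 for PrL against NAc (23.9%) in place of 3, and the fentanyl libraries gave 2 for S1 against PrL (42.9%). In the other settings run these counts stayed within 1.5 times.

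Leaving out each library gave 2 to 3 in VTA males, 1 to 2 in the VTA average, 0 to 2 in the S1 average, 0 to 1 in the PrL average, 0 to 2 in the NAc interaction and 3 to 5 for PrL against NAc. The added calls were Plagl1 in VTA males without male fentanyl 1 (adjusted p = 0.0409). For the VTA average they were Ndn without female fentanyl 5 (0.0308), female water 1 (0.0131) or male fentanyl 5 (0.0333), and Snrpn without female water 2 (0.0350) or 3 (0.0399). The PrL average gained Ndn without female water 1 (0.0327), and the S1 average gained Snrpn without male fentanyl 5 (0.0461). In the NAc interaction, Snrpn was called without female fentanyl 5 (0.0368) or female water 3 (0.0363), and Meg3 without the latter (0.0423). Ndn in the S1 average held without female fentanyl 3, female water 1 or 5, or male fentanyl 4 or 5.

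Values that changed sign while called in 1 of the settings belonged to Meg3 and Rian. With fentanyl libraries in place of water, VBT minus PrL was 0.40 for Meg3 and -0.65 for Rian (0.85 in water), and VBT minus NAc was 0.0603 for Meg3 and -0.91 for Rian (0.81 in water). Without 1 water library, these Rian values ran from -0.51 to 1.03 and from -0.58 to 0.96, and VTA minus VBT from -1.64 to 0.0157, each turned by VBT male water 3. For Ndn and Snrpn in VTA, r was 0.22 with the GC trend removed, 0.13 without 2 libraries and 0.44 with region marker scores removed. For Meg3 and Rian, removing those scores gave 0.56 in VTA, 0.54 in VBT, -0.46 in S1 and -0.53 in PrL. The causes were not tested. Within each of the 5 regions, the genes had the same order per kilobase of the longest transcript as per kilobase of exon.

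Over all genes, 4355 were called in VTA males, and 42 (VTA male water 3 kept) to 6568 (limma-voom) in other settings. The VTA average had 4580 and 60 to 5817. The S1 average had 203 and 0 to 645, the PrL average 133 and 0 to 778, NAc males 129 and 2 to 1573, S1 females 28 and 0 to 406, and PrL females 4 and 0 to 45. Leaving out 1 library moved them too: to 2659 (without male water 4) to 4664 in VTA males, 3637 to 5208 in the VTA average, 30 (male water 4) to 502 (male fentanyl 5) in the S1 average, 38 (female water 5) to 289 (female water 1) in the PrL average, 0 (male water 3) to 813 (male fentanyl 5) in NAc males, 0 to 220 (male fentanyl 5) in S1 females, and 0 to 7 in PrL females. The count moved by over 1.5 times in 1 of 19 fits in VTA males, 14 of 19 in the S1 average, 15 of 19 in S1 females, 14 of 20 in the PrL average, 18 of 20 in PrL females and 13 of 20 in NAc males, so the backgrounds outside VTA are not firm. That of VTA males moved with the setting, from 22.0% of genes to 2.6% with GC offsets and 0.216% with VTA male water 3 kept, so it is not firm either. Replicate numbers showed no pairing on average: deviations of same-numbered libraries of a region correlated at a mean of -0.0417 to -0.0011. Single pairs reached 0.404 in VTA and 0.284 in NAc, so the mean cannot exclude pairing of some numbers. With the replicate block, 2 genes were called in NAc males in place of 129. Libraries of the same group and number in 2 regions correlated at 0.0268 (others -0.0067), with 11 of 192 pairs over 0.1. Whether they come from 1 mouse is not given, and fits over several regions treat them as independent. With the replicate block, Ndn in the S1 average was at 0.34 (adjusted p = 0.0986). Counts were lowest for Meg3 (34 to 248 per library) and Rian (1 to 135).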
